A study of Homo sapiens with 37 samples.

Results

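Aortic endothelial cells (HAEC) and umbilical vein endothelial cells (HUVEC) were compared for how their RNA changed after 4 Gy of ionising radiation. The quantity tested for each gene was the response of HUVEC (irradiated over control, log2) minus the response of HAEC, so a positive difference means that the HUVEC response lay above the HAEC response and a difference of 1 is a factor of 2. It used the 11 endothelial libraries of the 37 in the series, chosen by their labels. These are 2 libraries of control HAEC (HAEC IR-), 3 of HAEC given 4 Gy (HAEC IR+), 3 of control HUVEC (HUVEC IR-) and 3 of HUVEC given 4 Gy (HUVEC IR+). No group carried a transgene or a drug. HAEC grew in EBM-2 medium with EGM-2 supplements and had passed 4 to 6 population doublings, HUVEC grew in EBM with EGM supplements and had passed 3 to 5, so cell type, medium, passage and source cannot be told apart. The labels used here do not give the time between irradiation and harvest or the number of donors. Nothing in the labels says that replicates came from separate cultures, so p-values measure the spread between these libraries, which may be technical.

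Ionising radiation breaks DNA, and the break response runs through ATM kinase to p53, whose targets such as CDKN1A halt division. Cells that do not recover may enter senescence, a lasting stop of division with enlarged lysosomes, an altered matrix and secreted cytokines, while RNA and DNA sensors can start an interferon programme. Endothelium lines all vessels, but arterial cells are shaped by Notch signalling and venous cells by NR2F2, and endothelial beds differ in adhesion molecules, growth factors and coagulation genes.

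The 11 libraries held 102293388 to 195250835 counts, of which 61.9% to 66.9% lay in protein-coding genes. The summed level of 21 pan-endothelial genes was 4868 to 4876 CPM (counts scaled to a common library total) in control HAEC, 6266 to 6372 in irradiated HAEC, 4437 to 4559 in control HUVEC and 5460 to 5617 in irradiated HUVEC. Among markers of other cells, 13 fibroblast markers summed to 68.9 to 106 CPM and 8 leukocyte markers to 5.10 to 8.91 CPM, with DPT, CD3E and the epithelial splicing gene ESRP1 at 0 in all 11 libraries. Smooth muscle and pericyte markers summed to 138 to 148 CPM in HAEC, 588 to 603 in control HUVEC and 805 to 870 in irradiated HUVEC, where RGS5 made up most of them. The 11 keratins and epithelial markers summed to 485 to 511 CPM in control and 1089 to 1108 in irradiated HAEC and to 417 to 421 in control and 488 to 490.3 in irradiated HUVEC, with the epithelial cadherin CDH1 under 0.1 CPM in all libraries. The part of such cells in the results was not tested.

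Of 30317 genes tested, 5446 (18%) had a called difference between the cell types, that is an adjusted p below 0.05 in edgeR's quasi-likelihood test. The HUVEC response lay above that of HAEC for 2684 genes (8.85%) and below it for 2762 (9.11%). This split moved with the libraries used, to 2198 above and 3419 below without the first HUVEC control. Without the third irradiated HUVEC library it was 2479 above and 2428 below. For 1079 genes (3.56%) the difference was at least 2-fold. Taken alone, 5515 genes rose (18.2%) and 5380 fell (17.7%) in HAEC, and 5254 rose (17.3%) and 5428 fell (17.9%) in HUVEC. Both responses passed for 7188 genes, and for 566 of them (7.87%) the directions were opposite, which is 1.87% of all genes tested. These split into 280 genes that rose in HAEC and fell in HUVEC (0.924%) and 286 that fell in HAEC and rose in HUVEC (0.943%). In 524 of the 566 genes (1.73% of those tested) control and irradiated libraries did not overlap in either cell type. Overlap was counted only among genes already called opposite, not over all genes, so it lends these calls no further weight. In 80 (0.264%) both responses reached 1.5-fold. Without the first HAEC control library the genes that fell in HAEC and rose in HUVEC numbered 176.

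Where both cell types responded in the same direction but unequally, the response was larger in HAEC for most genes. Of the called differences, 666 genes rose in both cell types and more in HAEC, 916 fell in both and more in HAEC, 170 rose more in HUVEC and 297 fell more in HUVEC. A further 909 genes rose and 721 fell in HAEC alone by the test, and 529 rose and 567 fell in HUVEC alone, while 105 passed in neither. Over the 6622 genes called in the same direction in both, the response was larger in HAEC for 4171 (63.0%), with a median size of 0.44 in HAEC and 0.39 in HUVEC. The median difference over all genes tested was -0.01, and it ran from -0.08 to -0.01 with each library left out in turn. Across genes, which are not independent replicates, the 2 responses had a Pearson r of 0.29 and a Spearman rho of 0.41, and r was 0.67 over the 14376 genes with an average log2 CPM of at least 1. Library depth and scaling are shared by all genes in these correlations.

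**Figure D1:**
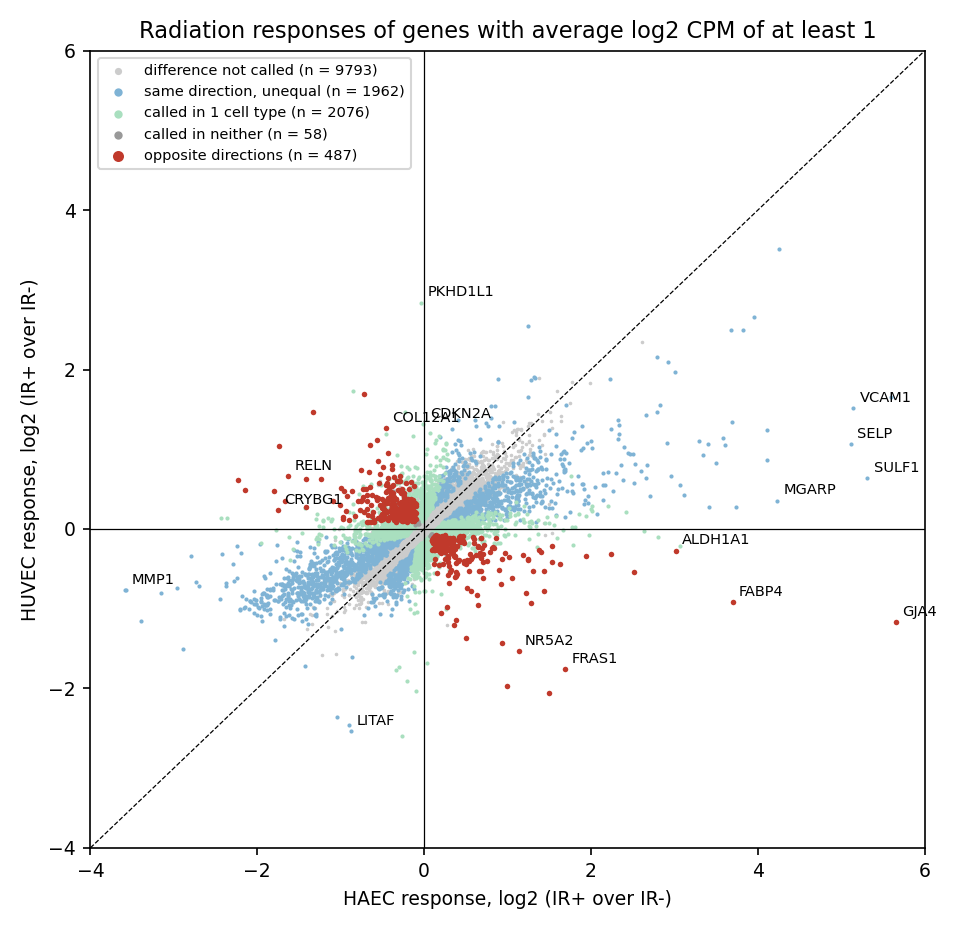
Radiation response of each of 14376 genes with an average log2 CPM of at least 1, HAEC on the x axis and HUVEC on the y axis (log2, irradiated over control); colours give the class of the called difference and the dashed line marks equal responses. The 487 genes of opposite response (red) fill the upper left and lower right of the plot, and the cloud of unequal responses (blue) lies flatter than the dashed line, with SULF1, SELP, VCAM1 and MGARP far to the right.

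In control cells 11128 genes (36.7%) already differed between HUVEC and HAEC, 5671 of them higher in HUVEC and 5457 higher in HAEC. For many genes described below, the level in the controls is therefore given with the response. Where only responses or differences are printed, the controls may differ as well, as for PTPRD (4.49 between HUVEC and HAEC controls). The difference of responses and the difference between controls use the same control libraries, so no relation between them is drawn.

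ALDH1A1, a cytosolic aldehyde dehydrogenase that makes retinoic acid from retinal, rose in HAEC and fell in HUVEC. Its level was 12.8 and 12.4 CPM in control HAEC and 99.6, 106 and 101 in irradiated HAEC. In HUVEC it was 102, 106 and 108 CPM in controls and 85.6, 90.0 and 86.7 after irradiation. No control library overlapped an irradiated one in either cell type, and irradiated HAEC reached the level of control HUVEC. The response was 3.02 ± 0.05 (SE) in HAEC and -0.27 ± 0.03 in HUVEC, a difference of -3.29 ± 0.06 (SE, adjusted p = 9.94e-24).

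MGARP, a mitochondrial membrane protein that takes part in mitochondrial transport, rose in both cell types, but far more in HAEC. Control HAEC held 2.88 and 2.82 CPM and irradiated HAEC 51.3, 55.2 and 54.5. Control HUVEC held 35.1, 34.8 and 37.9 CPM and irradiated HUVEC 45.4, 47.3 and 45.3. The HAEC controls stood alone below every other library, and irradiated HAEC lay slightly above irradiated HUVEC (-0.22 ± 0.04 between irradiated HUVEC and HAEC). The response was 4.23 ± 0.06 in HAEC and 0.36 ± 0.04 in HUVEC, a difference of -3.87 ± 0.07 (SE, adjusted p = 4.46e-23). Exons of MGARP overlap those of NDUFC1 on the same strand, so reads may be shared between them. The other members of the list of mitochondrial import genes and MGARP's neighbours differed less: 4 of 14 tested, MGARP among them, had a negative difference and 0 a positive one, and TIMM44 (-0.30 ± 0.07) and TOMM70 (-0.20 ± 0.05) were the next called.

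CDKN2A, which encodes the CDK4 and CDK6 inhibitor p16 and the p53 activator ARF, rose in HUVEC only by the test. HAEC held 6.70 and 5.74 CPM in controls and 6.03, 6.49 and 6.10 after irradiation, and these groups overlapped. HUVEC held 1.81, 1.5 and 1.72 CPM in controls and 4.05, 3.86 and 4.62 after irradiation, with no overlap. Even so, every irradiated HUVEC library stayed below every HAEC library. The HAEC response was -0.01 ± 0.10 (adjusted p = 0.968) and the HUVEC response 1.31 ± 0.10, a difference of 1.32 ± 0.14 (SE, adjusted p = 8.39e-08). CDKN2B-AS1 lies on the opposite strand over CDKN2A, and as strand use in counting is not given, reads of the pair cannot be told apart.

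Of the genes that rose in HAEC and fell in HUVEC, GJA4 had the largest difference among those named. GJA4 encodes connexin 37, a gap junction protein of arterial endothelium. It stood at 0.149 and 0.103 CPM in control HAEC and 6.65, 6.56 and 6.56 in irradiated HAEC, and at 3.90, 3.43 and 3.58 in control HUVEC and 1.56, 1.48 and 1.82 in irradiated HUVEC. Its order was thus inverted, with control HUVEC above control HAEC and irradiated HAEC above irradiated HUVEC. The difference was -6.83 ± 0.21 (SE, adjusted p = 2.18e-18), from a HAEC response of 5.66 ± 0.18 and a HUVEC response of -1.17 ± 0.10. As control HAEC was near the floor of detection, the size of the HAEC response rests on low control counts. FABP4, a fatty acid carrier of capillary endothelium and fat cells, was at 0.439 and 0.288 CPM in control and 4.47, 5.81 and 4.37 in irradiated HAEC, and at 5.15, 4.92 and 4.84 in control and 2.70, 2.4 and 2.78 in irradiated HUVEC. Irradiated HAEC overlapped control HUVEC, and neither cell type's own groups overlapped. The difference was -4.62 ± 0.21 (SE, adjusted p = 3.86e-15).

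FRAS1, a protein of basement membranes, moved by similar factors in opposite directions. It was at 3.90 and 3.35 CPM in control and 11.9, 11.1 and 12.3 in irradiated HAEC, and fell in HUVEC from 1.16, 1.33 and 1.42 to 0.490, 0.413 and 0.227. The difference of -3.45 ± 0.21 (SE, adjusted p = 1.16e-12) combines a response of 1.69 ± 0.13 with one of -1.76 ± 0.16. NR5A2, the nuclear receptor LRH-1, went from 11.2 and 10.9 CPM to 25.5, 23.1 and 24.3 in HAEC and from 8.40, 7.70 and 8.78 to 2.53, 3.07 and 3.04 in HUVEC. Control levels of NR5A2 were close (-0.41 ± 0.08 between HUVEC and HAEC controls) and the irradiated groups stood -3.08 ± 0.07 apart, the larger distance. Its difference of responses was -2.67 ± 0.11 (SE, adjusted p = 3.08e-16).

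SESN3, a sestrin that restrains mTORC1, was at 0.885 and 0.719 CPM in control and 4.06, 4.68 and 5.19 in irradiated HAEC, against 11, 10.6 and 9.91 in control and 7.04, 7.20 and 7.42 in irradiated HUVEC. The 2 cell types drew closer without meeting, and the difference was -3.06 ± 0.15 (SE, adjusted p = 1.98e-14). CCND2, the G1 cyclin D2, was at 2.66 and 1.5 CPM in control and 9.97, 9.68 and 10.7 in irradiated HAEC, and at 6.37, 6.54 and 7.28 in control and 5.23, 5.83 and 5.21 in irradiated HUVEC. The HUVEC fall was small (-0.31 ± 0.11, adjusted p = 0.0231) beside the HAEC rise (2.24 ± 0.14). Exons of CCND2-AS1 overlap CCND2 on the opposite strand.

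For 3 genes of the same orientation a cell type was near the floor of detection in both control and irradiated libraries. ITM2A, a small membrane protein, rose in HAEC from 9.82 and 8.93 CPM to 26.3, 27.3 and 25.7, while HUVEC held only 0.308, 0.212 and 0.331 CPM in controls and 0.0446, 0.0666 and 0.0992 after irradiation. CECR2, a bromodomain chromatin protein, rose from 2.94 and 2.52 to 5.68, 4.69 and 5.36 CPM in HAEC and held 0.191, 0.200 and 0.149 in control and 0.0334, 0.0866 and 0.0850 in irradiated HUVEC. CPE, the carboxypeptidase that trims peptide hormones, lay the other way, at 0.122 and 0.0616 CPM in control and 0.134, 0.196 and 0.247 in irradiated HAEC and at 6.90, 6.45 and 6.83 in control and 1.87, 1.63 and 1.66 in irradiated HUVEC. All 3 had called differences (-3.55 ± 0.26, -2.37 ± 0.33 and -2.96 ± 0.33), but the response of the cell type with the low level rests on at most 0.331 CPM.

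Other genes fell in HAEC and rose in HUVEC, among them a pair of cell surface proteases. MME, also called neprilysin or CD10, fell from 3.46 and 2.76 CPM to 0.866, 0.749 and 1.07 in HAEC and rose from 14.5, 13.9 and 15 to 20.8, 20.1 and 19.7 in HUVEC, a difference of 2.29 ± 0.14 (SE, adjusted p = 8.97e-13). PHEX, of the same protease family, fell from 2.87 and 2.18 to 0.720, 0.850 and 0.824 CPM in HAEC and rose from 2.51, 2.81 and 2.59 to 3.49, 3.09 and 3.51 in HUVEC, a difference of 2.02 ± 0.19 (SE, adjusted p = 4.02e-09). Control levels of PHEX did not pass the test between the cell types (adjusted p = 0.816), whereas those of MME were 2.20 apart. MME-AS1 overlaps MME on the opposite strand.

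RELN, the secreted glycoprotein reelin, fell from 24 and 24 CPM to 7.67, 7.21 and 8.39 in HAEC and rose from 1.05, 0.930 and 0.827 to 1.39, 1.51 and 1.56 in HUVEC, yet every HAEC library stayed above every HUVEC library. CRYBG1, a crystallin-domain protein, fell from 14.3 and 15.1 to 3.78, 4.58 and 4.65 CPM in HAEC and rose from 38.0, 40.1 and 40.5 to 45.7, 48.5 and 45.7 in HUVEC. C6orf141 fell from 3.31 and 3.63 to 1.17, 1.43 and 1.29 CPM in HAEC and rose from 4.78, 4.18 and 4.08 to 7.34, 5.66 and 7.08 in HUVEC. Their differences were 2.29 ± 0.13, 1.99 ± 0.08 and 2.04 ± 0.16, and control and irradiated libraries did not overlap in either cell type for any of the 3.

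The remaining genes of this orientation were low in HAEC. IL31RA, a receptor chain for interleukin 31, was at 0.567 and 0.657 CPM in control and 0.0366, 0.178 and 0.165 in irradiated HAEC, and at 3.02, 3.64 and 3.36 in control and 5.34, 4.74 and 5.21 in irradiated HUVEC. DNAH8, a heavy chain of axonemal dynein, was at 4.82, 6.42 and 5.56 CPM in control and 15.2, 15.8 and 15.4 in irradiated HUVEC, but at most 0.122 CPM in any HAEC library. LHX6, a LIM homeodomain factor, was at 1.95, 1.65 and 1.90 CPM in control and 5.87, 5.92 and 6.03 in irradiated HUVEC. In HAEC its controls (0.331 and 0.596) overlapped the irradiated libraries (0.226, 0.208 and 0.366). HOXA6 was at 0.0608 CPM or less in HAEC and at 3.22, 2.67 and 3.04 CPM in control and 4.08, 4.28 and 4.19 in irradiated HUVEC, and its difference (2.63 ± 0.71) was 1.5 with an adjusted p of 0.503 without the first HAEC control. For DNAH8, LHX6 and IL31RA the differences were 2.80 ± 0.48, 2.41 ± 0.29 and 2.84 ± 0.32.

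**Figure D2:**
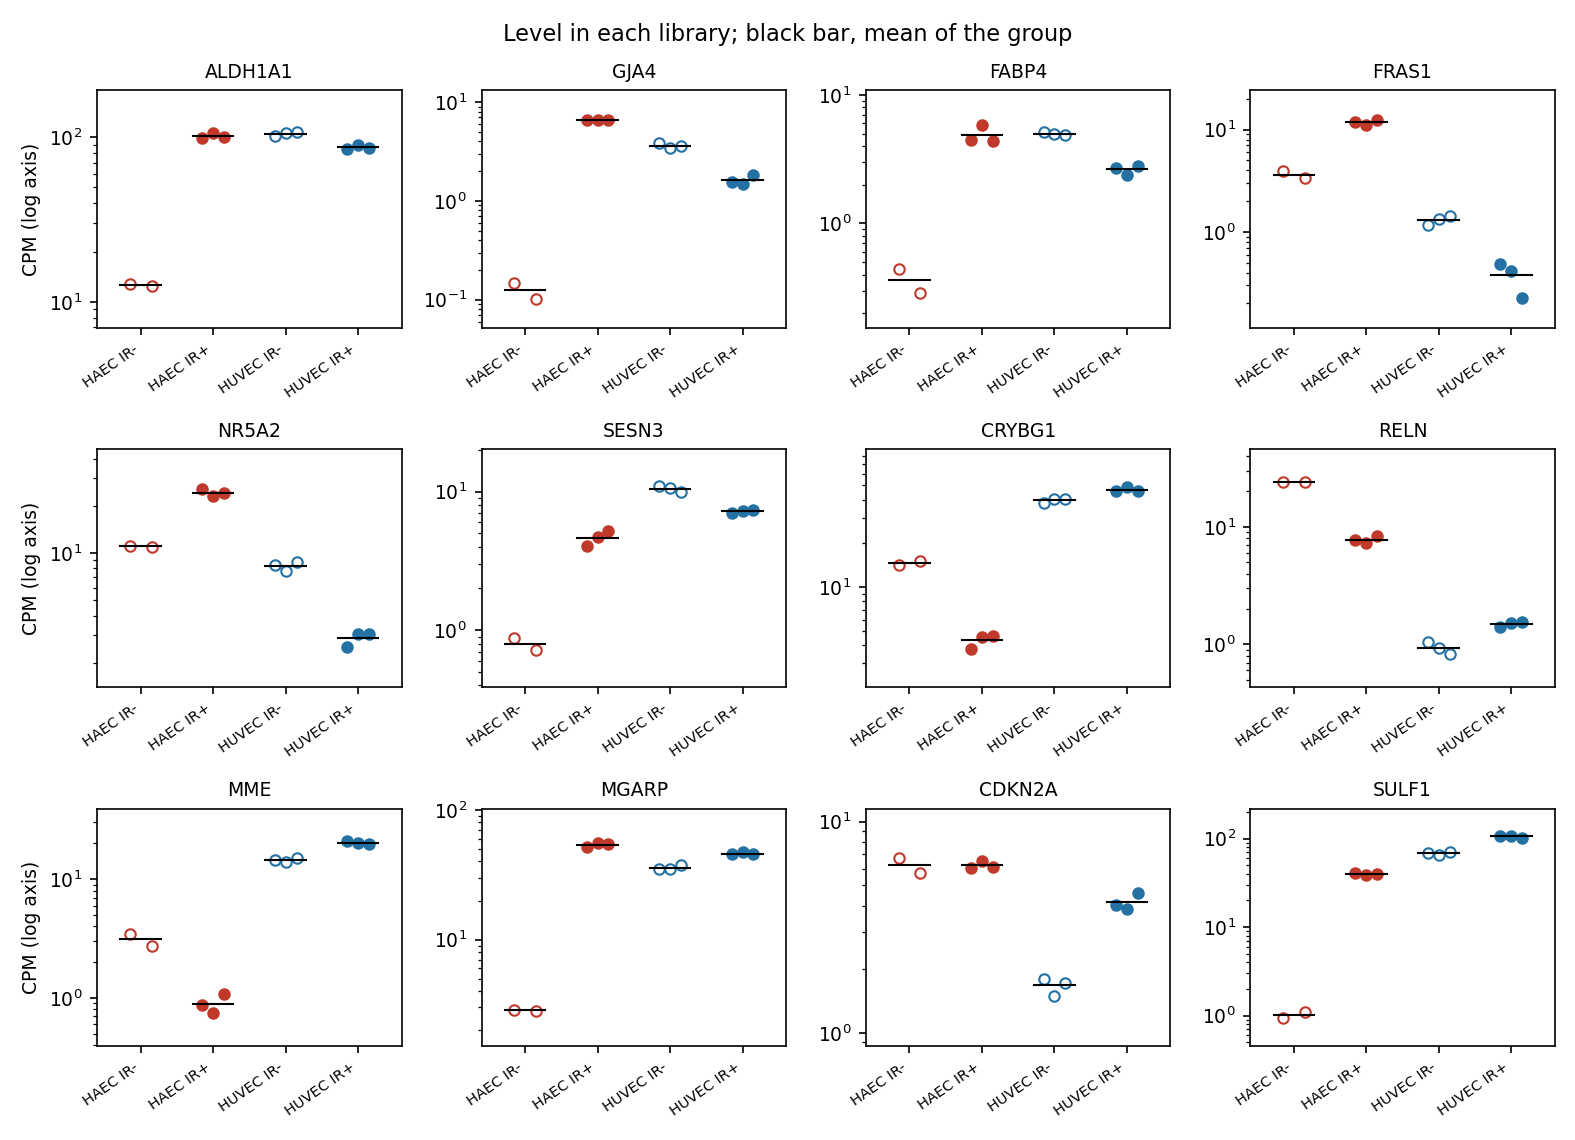
Level of 12 genes in each of the 11 libraries (CPM, log axis; open points control, filled points 4 Gy, red HAEC, blue HUVEC, black bar the mean of the group). ALDH1A1, GJA4, FABP4, FRAS1, NR5A2 and SESN3 go up in HAEC and down in HUVEC, CRYBG1, RELN and MME go the other way, MGARP and SULF1 go up in both, and CDKN2A goes up in HUVEC.

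Genes that rose in both cell types and far more in HAEC were led by SULF1, which removes sulphate groups from heparan sulphate. SULF1 went from 0.932 and 1.10 CPM to 41.0, 39.0 and 39.5 in HAEC and from 68.1, 64.6 and 71.5 to 108, 107 and 103 in HUVEC. The response was 5.31 ± 0.07 against 0.64 ± 0.04, although irradiated HAEC still held less than control HUVEC. SELP (P-selectin) and VCAM1 were also in this class and are given with the adhesion genes.

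Among genes that fell in both and more in HAEC were the interstitial collagenase MMP1 and the stromelysin MMP10. MMP1 fell from 5227 and 5108 CPM to 409, 442 and 447 in HAEC and from 720.0, 755 and 761 to 448, 422 and 445 in HUVEC, which brought the irradiated groups together (0.02 ± 0.03, adjusted p = 0.7). The pseudogene WTAPP1 lies over MMP1 on the opposite strand and gave nearly the same responses (-3.59 ± 0.04 and -0.76 ± 0.04). Reads of the pair cannot be told apart here. MMP10 fell from 17.4 and 15.2 to 2.38, 1.94 and 2.75 CPM in HAEC and from 7.14, 6.55 and 6.89 to 5.08, 5.33 and 5.84 in HUVEC. ADTRP, a membrane protein that raises the activity of the anticoagulant TFPI, was at 20.5 and 20.9 CPM in control HAEC and 20.6, 22.3 and 23 in control HUVEC (adjusted p = 0.311 between them). After irradiation it was at 2.29, 2.25 and 2.43 in HAEC and 13.2, 11.8 and 12.8 in HUVEC, a difference of 2.35 ± 0.09 (SE, adjusted p = 1.44e-16).

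Fewer genes responded more in HUVEC, and by smaller factors. EDA2R, a receptor of the TNF family and a p53 target, rose by 1.88 ± 0.09 in HUVEC and 0.89 ± 0.08 in HAEC. The integrin chains ITGA10 (1.15 ± 0.04 in HUVEC, 0.19 ± 0.04 in HAEC) and ITGB4 (1.26 ± 0.12 and 0.34 ± 0.12) and the transporter ABCC3 (1.36 ± 0.10 and 0.41 ± 0.10) also rose more in HUVEC. In all 4 genes every HAEC library lay above every HUVEC library. LITAF, a lysosomal membrane protein, fell from 4.70, 4.81 and 4.68 CPM to 0.875, 0.853 and 0.715 in HUVEC and from 1.23 and 1.54 to 0.634, 0.755 and 0.840 in HAEC, a difference of -1.65 ± 0.21 (SE, adjusted p = 1.02e-06). The receptor phosphatase PTPRD (-2.46 ± 0.12 in HUVEC, -0.91 ± 0.24 in HAEC), the phosphatase-like PALD1 (-1.61 ± 0.07 and -0.86 ± 0.09) and the RNA-tailing enzyme TENT5A (-0.90 ± 0.06 and -0.18 ± 0.06) fell more in HUVEC too. Without one library at a time, the genes that rose more in HUVEC numbered 60 to 149, with 60 without the first and 83 without the second HAEC control, 97 without the third and 106 without the first irradiated HAEC library.

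Some genes passed in 1 cell type only, and for those named here the difference itself passed. ACKR3, a scavenger receptor of the chemokine CXCL12, rose in HAEC from 0.810 and 0.513 CPM to 4.74, 4.99 and 4.63 and was at 12, 12 and 11.1 in control and 10.7, 10.8 and 11.2 in irradiated HUVEC. The long noncoding RNA LINC00639 rose in HAEC (2.64 ± 0.18) with a HUVEC response of -0.02 ± 0.14. CSF3, the granulocyte colony factor, fell in HAEC from 1.10 and 0.729 to 0.104, 0.178 and 0.252 CPM and was at 5.40, 4.09 and 4.69 in control and 4.56, 5.66 and 5.45 in irradiated HUVEC. HOXB4 fell in HAEC (-2.43 ± 0.30) at levels of at most 0.472 CPM, against 8.39 CPM or more in every HUVEC library. The fall of the cytokine TNFSF15 in HAEC (-1.95 ± 0.34) rested on the first control, at 1.14 CPM against 0.236 in the second. Without it the difference was 0.04 (adjusted p = 0.973), and in DESeq2's Wald test the difference of 1.67 did not pass (adjusted p = 0.0818).

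PKHD1L1, a large receptor-like protein related to fibrocystin, rose in HUVEC from 3.80, 4.08 and 3.53 CPM to 27.1, 27.2 and 27.4 and was at 0.817 and 0.688 in control and 0.555, 0.898 and 0.778 in irradiated HAEC. Its difference of 2.87 ± 0.19 (SE, adjusted p = 6.34e-12) was the largest of the genes named for a rise in HUVEC alone. MAMDC2 rose in HUVEC (1.47 ± 0.12) with a HAEC response of -0.23 ± 0.11. GPC5, a heparan sulphate proteoglycan, rose in HUVEC from 1.5, 2.04 and 1.58 to 5.49, 5.98 and 5.52 CPM, but in HAEC it was at 0.0810 and 0 in controls and at most 0.0412 after irradiation. Without the first HAEC control its difference turned from 2.58 to -3.43 (adjusted p = 0.468). CSMD1 (-2.60 ± 0.31), CSGALNACT1, which starts chondroitin sulphate chains (-2.04 ± 0.15), and TDRD9 (-1.68 ± 0.13) fell in HUVEC, with HAEC responses of -0.27 ± 0.16, -0.09 ± 0.16 and 0.04 ± 0.11. In HUVEC CSMD1 was at 0.383, 0.350 and 0.579 CPM in controls and at most 0.123 after irradiation, so its fall rests on few counts. Every HAEC library held 5.35 CPM of CSMD1 or more.

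Lists of genes by function are described next by how many tested members had a positive or a negative difference. These counts are to be read against 8.85% and 9.11% of all genes. The gene counts behind those 2 shares moved when a library was left out, as given above. Both shares cover all gene types, while the lists hold mainly protein-coding genes. In a fit of protein-coding genes only, 2310 of 15262 genes had a positive and 2806 a negative difference. These are larger shares, so a list somewhat above 8.85% or 9.11% need not stand out. Some genes stand in 2 lists. All lists were chosen with earlier results of these data known.

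**Figure D3:**
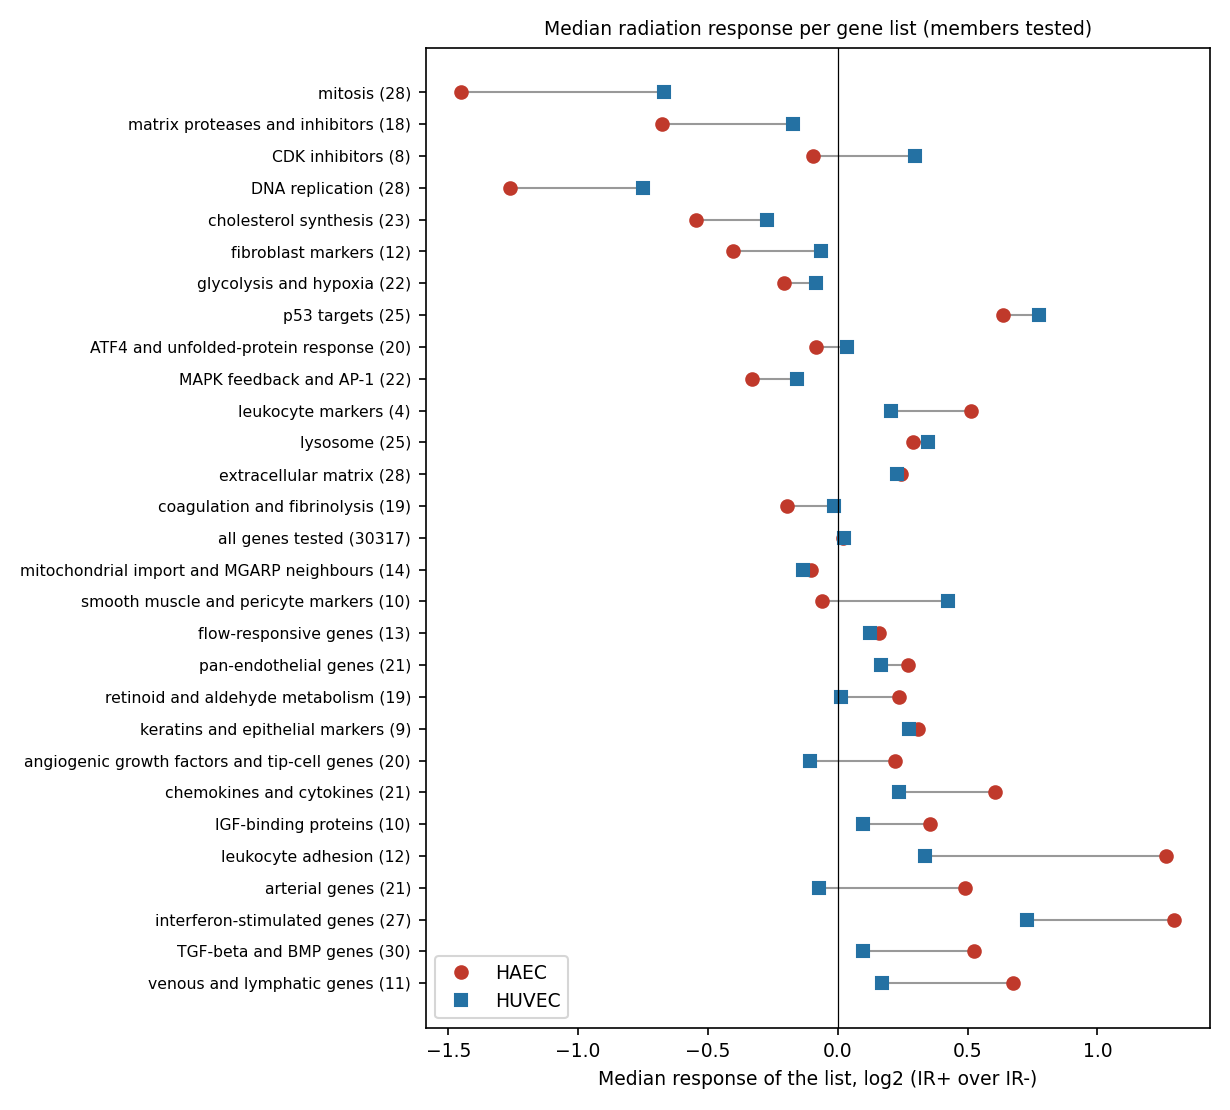
Median response of each list in HAEC (red circles) and HUVEC (blue squares), in log2 of irradiated over control, with the number of members tested in brackets and the lists ordered by their median difference. Mitosis and DNA replication lie further below 0 in HAEC, and interferon, adhesion, TGF-beta and BMP, arterial and venous genes lie further above 0 in HAEC.

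Genes of DNA replication and mitosis fell in both cell types, and more in HAEC. All 28 replication genes and all 28 mitosis genes fell in HAEC and in HUVEC. The difference was positive for 25 of 28 replication genes (median 0.44, with median responses of -1.26 in HAEC and -0.75 in HUVEC) and for 28 of 28 mitosis genes (median 0.78, with -1.45 and -0.67), with 0 negative in either list. The proliferation marker MKI67 was at 164 and 165 CPM in control HAEC, 58.6, 53.3 and 58.4 in irradiated HAEC, 136, 131 and 135 in control HUVEC and 96.8, 89.8 and 87.7 in irradiated HUVEC. Irradiated HUVEC thus kept more of it than irradiated HAEC without overlap, from controls that were higher in HAEC. The kinetochore gene NDC80 (difference 1.05 ± 0.06), the spindle gene ASPM (1.03 ± 0.05) and the topoisomerase TOP2A (0.96 ± 0.05) differed by like amounts. Among replication genes, the primase PRIM1 (0.89 ± 0.10), the transcription factor E2F1 (0.68 ± 0.09) and the ribonucleotide reductase chain RRM2 (0.61 ± 0.05) had clear differences, and the helicase loader CDC6 a small one (0.31 ± 0.06). In such bulk RNA, fewer cycling cells and less RNA per cell cannot be told apart.

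The promoters of mitosis genes often carry the cell cycle homology region, the letters TTTGAA, which the DREAM complex uses to silence these genes in resting cells. TTTGAA on either strand was found in the 250 bases before the start of 13 of 24 mitosis genes with an entry (54.2%), of 1 of 25 replication genes (4%) and of 1308 of 13766 tested genes with an entry (9.5%). The E2F letters TTTNNCGC were found before 12 of 25 replication genes (48%), 2 of 24 mitosis genes (8.33%) and 8.1% of all. A match is a description of letters and not a bound site. The windows of 3 mitosis genes with large differences are shown from RefSeq (GRCh38.p14), 5′ to 3′ on the gene's strand, with TTTGAA or its reverse complement in capitals, TOP2A at chr17:40417897-40418146, minus strand, MKI67 at chr10:128126424-128126673, minus strand and ASPM at chr1:197146670-197146919, minus strand.
TOP2A: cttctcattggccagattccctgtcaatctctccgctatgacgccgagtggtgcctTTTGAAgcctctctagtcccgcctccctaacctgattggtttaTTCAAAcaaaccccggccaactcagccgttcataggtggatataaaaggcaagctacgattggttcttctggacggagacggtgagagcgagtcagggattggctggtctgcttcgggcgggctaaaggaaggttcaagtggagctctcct
MKI67: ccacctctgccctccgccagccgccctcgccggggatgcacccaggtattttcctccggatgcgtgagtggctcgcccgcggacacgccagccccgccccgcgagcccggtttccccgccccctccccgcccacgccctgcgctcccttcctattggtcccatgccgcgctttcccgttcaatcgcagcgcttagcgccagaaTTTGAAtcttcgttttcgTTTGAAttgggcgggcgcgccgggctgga
ASPM: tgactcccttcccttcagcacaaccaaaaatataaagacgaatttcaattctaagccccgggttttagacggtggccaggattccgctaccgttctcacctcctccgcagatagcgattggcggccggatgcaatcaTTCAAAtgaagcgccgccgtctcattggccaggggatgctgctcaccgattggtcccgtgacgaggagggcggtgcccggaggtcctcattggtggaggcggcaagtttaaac

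Of 8 CDK inhibitors tested, 6 had a positive difference and 0 a negative one (median 0.45). CDKN2C, the inhibitor p18, fell from 33.5 and 31.2 CPM to 11.2, 11.6 and 10.9 in HAEC and only from 18.1, 17.3 and 17.1 to 16.2, 15.6 and 14.9 in HUVEC, a difference of 1.36 ± 0.07 (SE, adjusted p = 1.47e-13). CDKN1A (p21), the p53 target that stops the cycle in G1, rose in both, from 89.2 and 83.8 to 128, 127 and 130.3 CPM in HAEC and from 56.9, 56.8 and 57.7 to 104, 113 and 101 in HUVEC. CDKN1A was higher in HAEC in both states, and its response was larger in HUVEC (0.33 ± 0.06). CDKN1B (p27) fell in HAEC (-0.19 ± 0.04) and rose in HUVEC (0.14 ± 0.04), the 1 opposite response in the list. CDKN3 and CDKN2D fell more in HAEC, and for CDKN2B (0.18 ± 0.11) and CDKN1C (-0.61 ± 0.27) no difference was called.

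Most p53 targets rose in both cell types. Of 25 tested, 21 rose in HAEC and 23 in HUVEC, with median responses of 0.63 and 0.77, and the difference was positive for 9, negative for 5 and not called for 11 (median 0.11). Those with the higher response in HUVEC included PHLDA3 (0.55 ± 0.07), a brake on AKT, the DNA repair gene DDB2 (0.46 ± 0.06), the RNA-binding protein ZMAT3 (0.40 ± 0.05) and the pro-apoptotic BBC3 (0.52 ± 0.08). DDB2 and BAX passed in HUVEC (0.52 ± 0.04 and 0.44 ± 0.03) and not in HAEC (0.06 ± 0.05 and 0.08 ± 0.04). The secreted GDF15 (-0.63 ± 0.06) and the oxidoreductase TP53I3 (-0.57 ± 0.06) rose more in HAEC. In the controls, 20 of the 25 were higher in HAEC and 2 in HUVEC, against 5457 and 5671 of all 30317 genes tested.

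Interferon-stimulated genes rose in both cell types and more in HAEC. Of 27 tested, 24 rose in HAEC and 18 in HUVEC, with median responses of 1.30 and 0.73, and the difference was negative for 15 and positive for 3 (median -0.54). IFI27 was at 3.71 and 3.87 CPM in control HAEC, 53.5, 38.1 and 44.8 in irradiated HAEC, 26.7, 27.8 and 24.7 in control HUVEC and 58.4, 58.8 and 57.1 in irradiated HUVEC. Its control level was higher in HUVEC, and its difference was -2.45 ± 0.12 (SE, adjusted p = 2.99e-14). IFI6, a mitochondrial survival protein, went from 7.90 and 9.39 to 50.9, 40.9 and 50.7 CPM in HAEC and from 5.96, 6 and 5.81 to 12.1, 11.2 and 10.7 in HUVEC, from control levels that were higher in HAEC, a difference of -1.53 ± 0.11 (SE, adjusted p = 5.25e-11). The RNA sensor RIGI (-0.49 ± 0.07) and the ubiquitin-like ISG15 (-0.66 ± 0.10) had smaller differences of the same sign.

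The list was not uniform. ISG20, an exonuclease, fell in both and more in HAEC (-1.92 ± 0.12 against -0.59 ± 0.11), and the deconjugase USP18 fell in both and more in HUVEC (-0.27 ± 0.04 against -0.59 ± 0.04), which counts among the negative differences. OAS2 and IFI44 rose more in HUVEC (0.57 ± 0.19 and 0.27 ± 0.07). The call for IFI44 was lost without the first HAEC control, and that for OAS2 without each of 7 libraries in turn and in DESeq2's Wald test (adjusted p = 0.125). For OAS1, IRF9, IRF7, IFIH1, XAF1 and BST2 no difference was called, with values from -0.24 ± 0.21 for BST2 to 0.08 ± 0.12 for OAS1. RSAD2, MX2, CMPK2, OASL and HERC5, whose differences were negative, were below 1 CPM on average in every group.

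The interferon-stimulated response element, searched as GAAANNGAAA on either strand, was found in the 250 bases before the start of 13 of 20 interferon-stimulated genes with an entry (65%), against 347 of 13766 tested genes (2.52%). Genes of opposite response held it in 1.92% (rose in HAEC, 4 of 208) and 3.5% (fell in HAEC, 7 of 200), near that background. Genes that rose in both and more in HAEC held it in 4.36% (21 of 482), a class that includes list members such as IFI27 and IFI6. ISG20, which fell, and IFIH1 and BST2, for which no difference was called, hold the letters too. The windows of 3 interferon-stimulated genes with large negative differences are shown in the same way with the element in capitals, IFI27 at chr14:94110486-94110735, plus strand, IFI6 at chr1:27672193-27672442, minus strand and IFIT1 at chr10:89392373-89392622, plus strand.
IFI27: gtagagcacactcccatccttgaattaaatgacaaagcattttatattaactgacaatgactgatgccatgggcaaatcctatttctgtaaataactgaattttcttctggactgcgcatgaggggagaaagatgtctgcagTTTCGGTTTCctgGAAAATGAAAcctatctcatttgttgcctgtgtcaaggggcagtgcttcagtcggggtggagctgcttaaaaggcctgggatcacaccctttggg
IFI6: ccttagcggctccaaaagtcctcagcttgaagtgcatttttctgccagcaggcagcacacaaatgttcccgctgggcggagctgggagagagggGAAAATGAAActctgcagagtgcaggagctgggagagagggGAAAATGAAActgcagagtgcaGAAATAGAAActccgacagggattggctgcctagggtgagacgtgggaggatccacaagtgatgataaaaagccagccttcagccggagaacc
IFIT1: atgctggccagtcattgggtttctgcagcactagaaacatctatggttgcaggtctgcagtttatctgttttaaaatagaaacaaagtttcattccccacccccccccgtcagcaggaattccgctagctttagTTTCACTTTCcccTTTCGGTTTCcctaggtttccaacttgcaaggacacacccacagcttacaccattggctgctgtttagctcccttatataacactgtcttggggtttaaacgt

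The selectins and VCAM1, which hold leukocytes to activated endothelium, rose in both cell types, from lower controls in HAEC to higher levels after irradiation. Of 12 tested, 5 had a negative and 3 a positive difference (median -0.46). SELP, the P-selectin stored in endothelial granules, went from 0.486 and 0.370 CPM to 14.1, 16.5 and 15 in HAEC and from 1.95, 2.07 and 1.85 to 4.11, 4.03 and 4.12 in HUVEC, a difference of -4.05 ± 0.16 (SE, adjusted p = 2.68e-16). VCAM1, the ligand of the integrin VLA-4, went from 0.338 and 0.359 to 13.2, 11.8 and 11.9 CPM in HAEC and from 1.98, 1.63 and 2.20 to 5.10, 5.72 and 5.87 in HUVEC, a difference of -3.63 ± 0.19 (SE, adjusted p = 4.31e-14). SELE (E-selectin) had the same pattern at lower levels (-3.62 ± 0.39). In these 3 genes control HAEC was the lowest and irradiated HAEC the highest of the 4 groups. CD44, the hyaluronan receptor, went the other way, falling in HAEC from 122 and 114 to 69.6, 71.1 and 72.3 CPM and rising in HUVEC from 91.0, 87.7 and 95.1 to 126, 119.8 and 114, a difference of 1.13 ± 0.06 (SE, adjusted p = 3.28e-14). ICAM2 (-0.51 ± 0.03 in HAEC, -0.19 ± 0.03 in HUVEC) fell more in HAEC.

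Letters like those bound by NF-kappaB, searched as GGGNNTTCC on either strand, were found before 3 of 9 adhesion genes with an entry (33.3%) and before 981 of 13766 tested genes (7.13%). The 3 are VCAM1, SELE and MADCAM1, and SELP is not among them. The windows of VCAM1 and SELE are shown with the match in capitals, VCAM1 at chr1:100719492-100719741, plus strand and SELE at chr1:169734080-169734329, minus strand.
VCAM1: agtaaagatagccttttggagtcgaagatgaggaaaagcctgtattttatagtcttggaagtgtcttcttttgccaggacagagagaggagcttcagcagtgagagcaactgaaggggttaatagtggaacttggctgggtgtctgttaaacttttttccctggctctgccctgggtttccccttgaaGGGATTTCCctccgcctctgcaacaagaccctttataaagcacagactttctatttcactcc
SELE: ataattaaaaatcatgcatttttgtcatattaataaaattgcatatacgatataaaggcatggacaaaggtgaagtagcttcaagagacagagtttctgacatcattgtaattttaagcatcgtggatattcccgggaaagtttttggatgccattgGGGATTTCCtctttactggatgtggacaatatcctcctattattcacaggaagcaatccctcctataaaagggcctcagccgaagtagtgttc

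Among chemokines and cytokines, 9 of 21 tested had a negative and 4 a positive difference (median -0.34). IL33, a nuclear alarmin of endothelium, went from 4.25 and 3.62 CPM to 67.7, 71.9 and 66.6 in HAEC and from 1.48, 2 and 1.35 to 3.06, 2.87 and 2.81 in HUVEC. Irradiated HAEC stood far above all other libraries, and the difference was -3.25 ± 0.13 (SE, adjusted p = 5.23e-16). The death ligand TNFSF10 (3.06 ± 0.12 in HAEC, 0.56 ± 0.09 in HUVEC), IL32 (2.45 ± 0.10 and 0.96 ± 0.07) and the monocyte chemokine CCL2 (2.15 ± 0.11 and 0.70 ± 0.09) rose in both and more in HAEC. CXCL8, the neutrophil chemokine, rose in HAEC from 96.5 and 92.9 to 114, 121 and 114 CPM and fell in HUVEC from 37, 37.9 and 43.8 to 29, 28.3 and 28.8, and CXCL12 was opposite in the same orientation (1.19 ± 0.16 and -0.89 ± 0.30, at 0.12 CPM in control HUVEC). These 2 were the opposite responses in the list.

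Genes of TGF-beta and BMP signalling had the most negative differences of the lists, 18 of 30 tested against 4 positive (median -0.59, with median responses of 0.53 in HAEC and 0.10 in HUVEC). Among ligands, BMP4 rose from 20.8 and 20.4 CPM to 107, 104 and 107 in HAEC and from 53.8, 51.0 and 52.1 to 90.9, 94.4 and 89.4 in HUVEC, a difference of -1.55 ± 0.05 (SE, adjusted p = 1.07e-17), and TGFB2 rose by 3.29 ± 0.08 and 1.10 ± 0.05. GDF6 was opposite, rising in HAEC from 5.11 and 3.72 to 6.99, 7.34 and 6.70 CPM and falling in HUVEC from 14.1, 13.7 and 14.4 to 7.29, 6.64 and 7.87, which left the irradiated groups overlapping. Among receptors, ENG passed in HAEC (0.63 ± 0.09) and not in HUVEC (0.02 ± 0.08), TGFBR3 rose more in HAEC (-0.60 ± 0.08), and TGFBR2 (0.19 ± 0.04) and ACVRL1 (0.20 ± 0.04) rose slightly more in HUVEC. The call for ACVRL1 was lost without the first HAEC control.

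The ID genes and SMAD6, known targets of BMP signalling, were members of the same list. ID1, an inhibitor of basic helix-loop-helix factors, was at 136 and 146 CPM in control and 213, 214 and 209.9 in irradiated HAEC, and at 96.0, 93.2 and 92.3 in control and 86.2, 88.6 and 87.2 in irradiated HUVEC. ID3 was opposite as well (0.42 ± 0.04 and -0.10 ± 0.03), ID2 passed in HAEC (1.80 ± 0.13) and not in HUVEC (0.02 ± 0.12), and the inhibitory SMAD6 rose from 36.7 and 34.2 to 105, 95.3 and 100.4 CPM in HAEC and from 12.9, 12.5 and 12 to 16, 14.8 and 14.1 in HUVEC. The falls of ID1 and ID3 in HUVEC were small, -0.10 ± 0.03 and -0.10 ± 0.03, and their differences were -0.70 ± 0.05 (SE, adjusted p = 1.51e-11) and -0.52 ± 0.05 (SE, adjusted p = 6.36e-09). Of the secreted antagonists, FSTL3 rose in HAEC (0.66 ± 0.06) and fell in HUVEC (-0.53 ± 0.05), whereas FST, which binds activin, fell from 26.9 and 26.8 to 5.93, 5.42 and 5.68 CPM in HAEC and from 8.01, 7.44 and 7.33 to 6.42, 6.25 and 6.97 in HUVEC. LTBP1, which holds latent TGF-beta in the matrix, was the 1 gene in the list that fell in HAEC (-0.13 ± 0.03) and rose in HUVEC (0.54 ± 0.03).

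**Figure D4:**
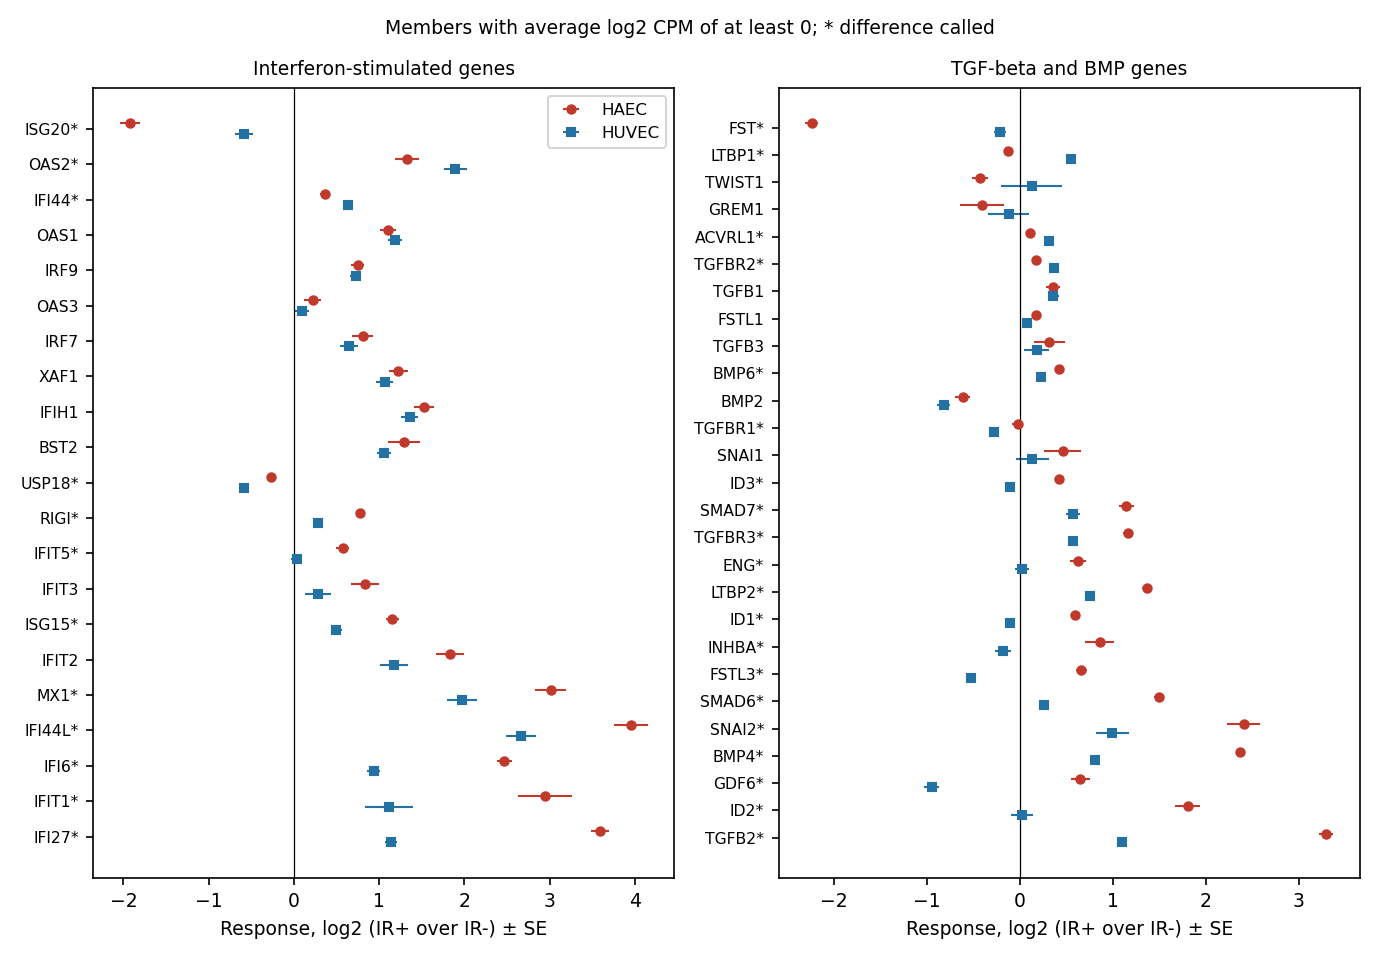
Response of interferon-stimulated genes (left) and TGF-beta or BMP genes (right) with an average log2 CPM of at least 0, in log2 of irradiated over control with its SE, HAEC as red circles and HUVEC as blue squares, ordered by the difference; a star marks a called difference. IFI27, IFIT1 and IFI6 have the widest gaps on the left, and on the right ID1, ID3, FSTL3 and GDF6 lie on opposite sides of 0.

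More arterial genes rose in HAEC than in HUVEC. Of 21 tested, 14 rose in HAEC and 5 in HUVEC, and the difference was negative for 12 and positive for 3 (median -0.50). The Notch ligands DLL4, JAG1 and JAG2 all had negative differences. JAG1 went from 65.6 and 63.7 CPM to 83.0, 78.7 and 79.5 in HAEC and from 66.8, 66.0 and 66.0 to 45.4, 45.7 and 45.8 in HUVEC, so that controls of the 2 cell types were close and irradiated libraries were not. DLL4 rose in HAEC (0.63 ± 0.10) and fell in HUVEC (-0.33 ± 0.07), and JAG2 rose in HAEC (0.51 ± 0.05) with a HUVEC response of -0.11 ± 0.05 (adjusted p = 0.0796). The Notch target HES1 rose in both and more in HAEC (-0.43 ± 0.12), while for HEY1 (0.82 ± 0.32) and HEY2 (-0.50 ± 0.36) no difference was called.

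EFNB2, the ephrin that marks arterial endothelium, rose from 3.51 and 3.42 CPM to 13.4, 13.8 and 13.7 in HAEC and was at 25.7, 23.6 and 23.8 in control and 23.8, 22.6 and 23.2 in irradiated HUVEC. Every HAEC library was thus below every HUVEC library of this arterial gene, and the difference was -2.04 ± 0.08 (SE, adjusted p = 2.68e-16). GJA4, UNC5B, DLL4, JAG1 and CXCL12 were the 5 members that rose in HAEC and fell in HUVEC. FBLN5, an elastic fibre protein, was the 1 that fell in HAEC and rose in HUVEC (-0.75 ± 0.28 and 0.74 ± 0.14). In HAEC FBLN5 was at 0.358 and 0.288 CPM in controls and 0.0976, 0.190 and 0.283 after irradiation. Its HAEC fall (adjusted p = 0.0382 in edgeR's test) thus rests on low counts. NRP1 (0.41 ± 0.05) and NOTCH4 (0.33 ± 0.09) had positive differences, that of NOTCH4 being lost without the first HAEC control, the second irradiated HAEC or the second control HUVEC library. Control levels did not sort the list by the labelled vessel, since 11 of 21 members were higher in control HUVEC and 6 in control HAEC. Over all 30317 genes tested these numbers were 5671 and 5457.

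Venous and lymphatic genes had negative differences for 6 of 11 tested and positive ones for 2 (median -0.85). EMCN, the sialomucin of venous and capillary endothelium, rose from 89.1 and 90.5 CPM to 138, 147 and 145 in HAEC and fell from 42.9, 45.1 and 44.6 to 34.8, 34.9 and 35.1 in HUVEC. FLT4, the receptor of VEGF-C, was opposite in the same orientation (0.68 ± 0.09 and -0.52 ± 0.07), and EPHB4, the venous receptor of EFNB2, rose in both and more in HAEC (-0.34 ± 0.05). LYVE1, a hyaluronan receptor of lymphatics, fell from 5.45 and 4.75 to 2.4, 1.77 and 2.24 CPM in HAEC and was at 13.3, 14.1 and 13 in control and 13.8, 13.7 and 14 in irradiated HUVEC.

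Pan-endothelial genes had 5 positive and 6 negative differences of 21 tested, and with both signs present the median was -0.05. The differences of the 21 ran from -1.27 to 0.35. VWF, the platelet adhesion factor of endothelial granules, was the exception in size, at 94.9 and 96.4 CPM in control and 286, 270.4 and 276 in irradiated HAEC and at 359, 308 and 282 in control and 386, 376 and 378 in irradiated HUVEC, a difference of -1.27 ± 0.08 (SE, adjusted p = 1.08e-12). The junction genes CLDN5 (0.27 ± 0.07) and ESAM (0.35 ± 0.06) and the nitric oxide synthase NOS3 (0.34 ± 0.08) had small positive differences. Of 13 flow-responsive genes, 3 were positive and 4 negative (median -0.03). KLF2, a shear-induced factor, fell in HAEC from 11 and 10.1 CPM to 8.45, 7.33 and 8.35 and rose in HUVEC from 4.80, 4.75 and 4.74 to 6.51, 6.44 and 6.28, and the vasoconstrictor EDN1 rose in both and more in HAEC (1.15 ± 0.04 and 0.25 ± 0.04).

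Angiogenic growth factors and tip-cell genes had 10 negative and 5 positive differences of 20 tested (median -0.24). APLN, the ligand of the apelin receptor, was nearly level in the controls, at 449 and 457 CPM in HAEC and 466, 441 and 469 in HUVEC. After irradiation it was at 117, 109 and 122 in HAEC and 403, 407 and 396 in HUVEC, a difference of 1.77 ± 0.05 (SE, adjusted p = 7.15e-19). ESM1, a proteoglycan of tip cells, went the other way, rising in HAEC from 187 and 189 to 239.8, 251 and 247 CPM and falling in HUVEC from 272, 279 and 297 to 198, 194 and 193, and the irradiated groups inverted the order of the controls. Of the ANGPT genes, ANGPT1 passed in HAEC (1.09 ± 0.09) and not in HUVEC (0.17 ± 0.07), and its antagonist ANGPT2 fell in HAEC (-0.66 ± 0.04) with a HUVEC response of -0.08 ± 0.03. VEGFA (0.41 ± 0.09 and -0.14 ± 0.07), FGF2 (0.60 ± 0.04 and 0.23 ± 0.04) and PDGFB (0.85 ± 0.06 and 0.40 ± 0.05) had negative differences.

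Coagulation and fibrinolysis genes split evenly, with 6 positive and 5 negative of 19 tested (median 0.00). PLAT, the tissue plasminogen activator, fell from 222 and 199 CPM to 43.8, 44.0 and 45.8 in HAEC and from 98.5, 100.01 and 103 to 67.4, 63.6 and 66.2 in HUVEC, a difference of 1.63 ± 0.06 (SE, adjusted p = 1.34e-17). TFPI, the inhibitor of tissue factor, passed in HUVEC, from 266, 267 and 266 to 409, 429 and 411 CPM, and not in HAEC (0.07 ± 0.03). PLAU (urokinase) was opposite (-0.20 ± 0.06 in HAEC, 0.24 ± 0.05 in HUVEC), and the thrombin receptor F2R rose more in HAEC (-0.65 ± 0.05).

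**Figure D5:**
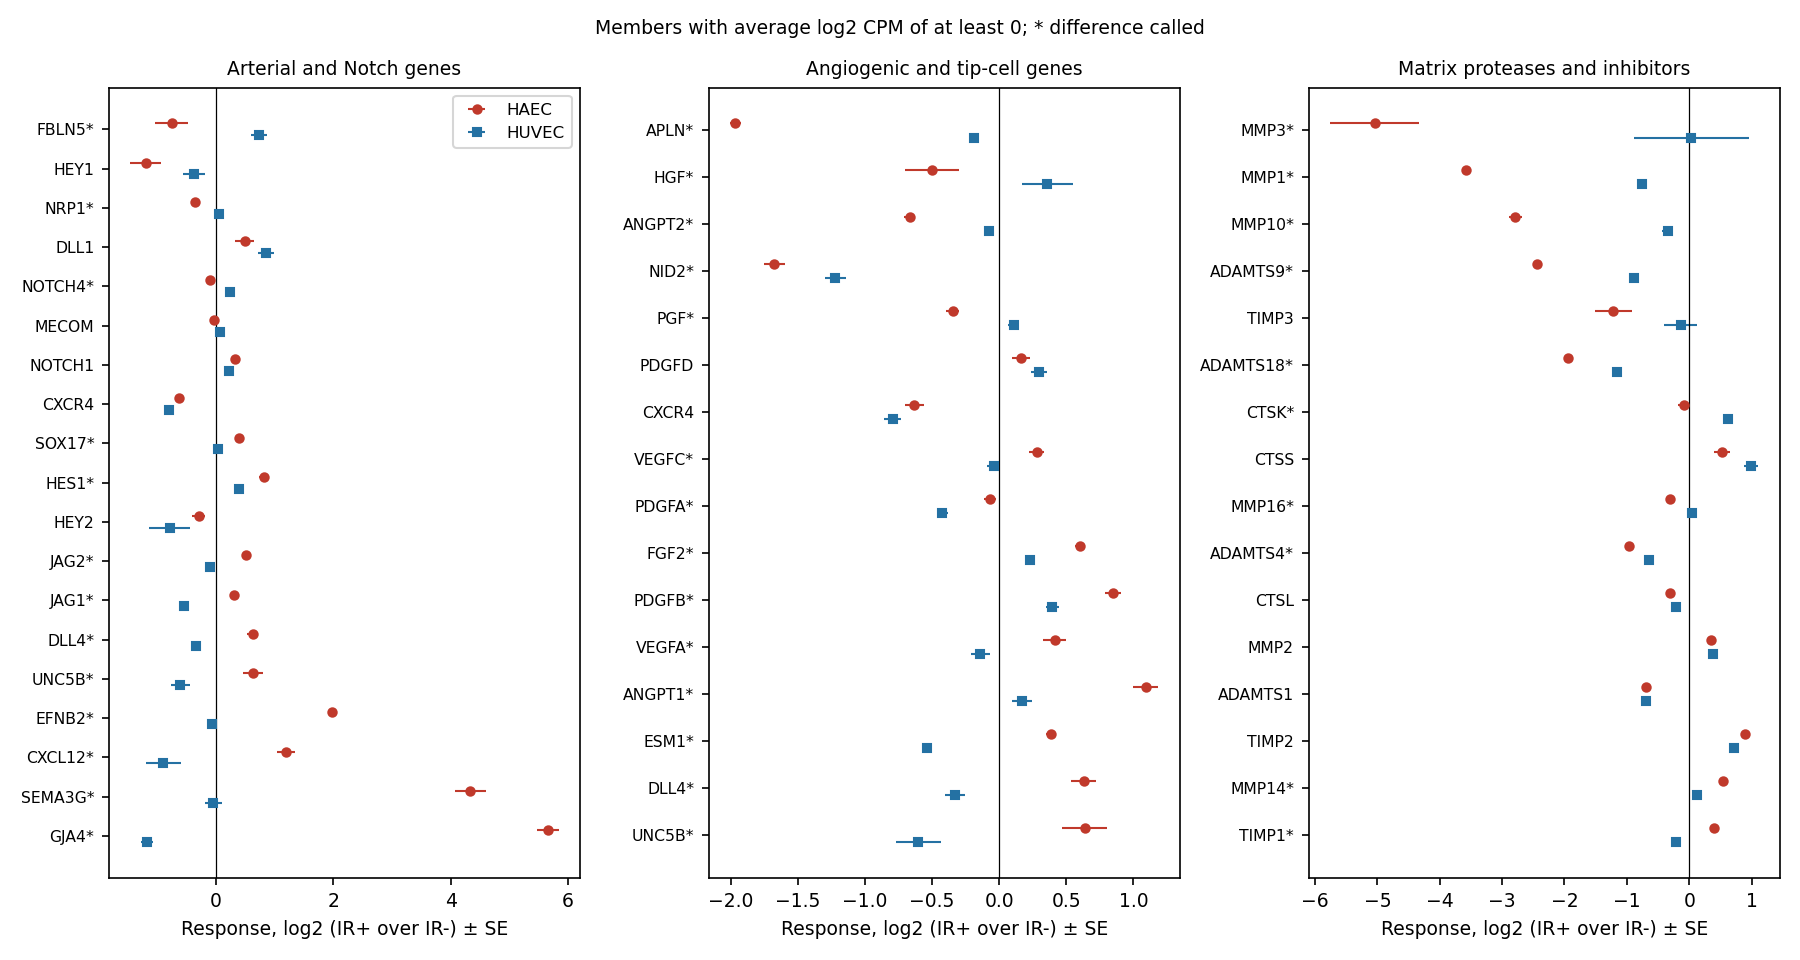
Response of arterial and Notch genes, angiogenic and tip-cell genes, and matrix proteases and their inhibitors with an average log2 CPM of at least 0, in log2 of irradiated over control with its SE, HAEC as red circles and HUVEC as blue squares; a star marks a called difference. GJA4 and SEMA3G lie far to the right in HAEC on the left panel, APLN falls furthest in HAEC on the middle panel, and MMP1, MMP10 and ADAMTS9 fall more in HAEC on the right panel.

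Matrix proteases and their inhibitors had 8 positive and 2 negative differences of 18 tested (median 0.53, with median responses of -0.68 in HAEC and -0.17 in HUVEC). Of the 18, 12 were higher in control HAEC and 0 in control HUVEC, against 5457 and 5671 of all 30317 genes tested. ADAMTS9 fell from 161 and 162 CPM to 30.6, 28.6 and 29.7 in HAEC and from 56.3, 56.0 and 54.6 to 29.8, 29.4 and 31.3 in HUVEC, where the irradiated groups overlapped. TIMP1 rose in HAEC (0.40 ± 0.05) and fell in HUVEC (-0.22 ± 0.05), and the membrane protease MMP14 rose more in HAEC (-0.42 ± 0.05).

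Extracellular matrix genes rose in 17 of 28 cases in each cell type, and 5 differences were positive and 6 negative (median 0.01). COL12A1, a fibril-associated collagen, rose in HUVEC from 53.2, 50.3 and 52.6 CPM to 129, 122 and 125 and was at 7.85 and 4.66 in control and 3.84, 3.61 and 6.42 in irradiated HAEC. Its HAEC response was -0.46 ± 0.16 (adjusted p = 0.0275) and the difference 1.73 ± 0.19 (SE, adjusted p = 1.46e-07). THBS1, thrombospondin 1, rose from 5203 and 5212 to 7905, 7939 and 7977 CPM in HAEC and was at 6507, 6227 and 6454 in control and 6487, 6476 and 6491 in irradiated HUVEC. COL8A1 (-0.74 ± 0.05), a collagen of the subendothelium, and POSTN (-0.75 ± 0.14) rose more in HAEC. POSTN, a periostin also made by fibroblasts, averaged 1110.1 ± 17.1 CPM (SD, n = 2) in control HAEC and 6.35 ± 1.43 (SD, n = 3) in control HUVEC.

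Of 10 IGF-binding proteins tested, 5 had a negative difference and 0 a positive one (median -0.34). IGFBP7 rose from 538 and 515 CPM to 1169, 1204 and 1225 in HAEC and from 348, 354 and 345 to 492, 490.2 and 508 in HUVEC. IGFBP3 (1.22 ± 0.05 and 0.44 ± 0.04) and IGFBP4 (0.74 ± 0.04 and 0.21 ± 0.04) also rose in both and more in HAEC, and IGFBP2 was opposite (0.23 ± 0.05 and -0.44 ± 0.04).

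Retinoid and aldehyde metabolism, the pathway of ALDH1A1, had 7 positive and 6 negative differences of 19 tested (median -0.23). Of the other retinal dehydrogenases, ALDH1A3 fell from 113 and 106 CPM to 61.6, 62.0 and 61.2 in HAEC and rose slightly in HUVEC from 22.6, 22.4 and 23 to 24.7, 27.1 and 24.7, the reverse orientation. ALDH1A2 fell in HUVEC from 55.1, 54.6 and 56.4 to 36.2, 36.7 and 38.3 CPM and fell in HAEC too (-1.23 ± 0.22), where it was below 1 CPM. The retinoic acid receptor RARB (0.97 ± 0.06 and 0.25 ± 0.05) and the retinal reductase DHRS3 (1.74 ± 0.06 and 0.83 ± 0.05), both known retinoic acid targets, rose in both and more in HAEC. DHRS9, of the same list, fell from 1.65 and 1.51 to 0.0793, 0.107 and 0.0927 CPM in HAEC and from 2.17, 2.51 and 2.82 to 1.65, 1.81 and 1.52 in HUVEC.

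Genes of cholesterol synthesis fell further in HAEC. Cholesterol synthesis had 13 positive and 1 negative difference of 23 tested (median 0.38), with 20 members falling in HAEC and 17 in HUVEC. For FDFT1 and INSIG1 the fall passed in HAEC (-0.69 ± 0.04 and -0.63 ± 0.05) and not in HUVEC (-0.06 ± 0.03 and -0.07 ± 0.04), and SREBF2, the factor that drives the pathway, was opposite (-0.17 ± 0.04 and 0.21 ± 0.04). Glycolysis and hypoxia genes had 6 positive and 0 negative of 22 (median 0.11), led by NDRG1 (-1.06 ± 0.04 in HAEC, -0.10 ± 0.04 in HUVEC). Among ATF4 and unfolded-protein genes, 7 were positive and 1 negative of 20 (median 0.10). The serine and asparagine enzymes PHGDH (-1.21 ± 0.05 and 0.02 ± 0.04), ASNS (-1.24 ± 0.06 and -0.07 ± 0.05) and PSAT1 (-1.36 ± 0.06 and -0.44 ± 0.05) fell in HAEC, and of these PSAT1 alone fell in HUVEC.

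MAPK feedback and AP-1 genes had 9 positive and 4 negative differences of 22 tested (median 0.09). The ETS factors ETV1, ETV4 and ETV5, induced by ERK, fell in HAEC (-0.74 ± 0.05, -1.62 ± 0.09 and -0.52 ± 0.05). In HUVEC ETV1 rose (0.50 ± 0.05), the 1 opposite response in the list, and ETV4 (-0.10 ± 0.07) and ETV5 (-0.04 ± 0.04) did not pass. The ERK phosphatase DUSP4 fell from 80.5 and 79.2 CPM to 33.5, 33.2 and 32.6 in HAEC and from 44.0, 42.7 and 43.9 to 38.0, 38.7 and 39.7 in HUVEC, while DUSP1 fell more in HUVEC (-0.29 ± 0.06).

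Lysosomal genes rose in 18 of 25 cases in HAEC and 19 in HUVEC, with 6 positive and 3 negative differences (median 0.08). GLB1, which encodes the beta-galactosidase stained in senescent cells, rose slightly more in HUVEC, from 45.6, 45.3 and 44.2 CPM to 62.8, 62.8 and 62.4, than in HAEC, from 52.6 and 52 to 63.2, 61.4 and 64.3 (0.21 ± 0.05). The acid ceramidase ASAH1 (-0.85 ± 0.11) and the fucosidase FUCA1 (-0.82 ± 0.14) rose more in HAEC, and the cathepsin CTSB was opposite (-0.10 ± 0.03 in HAEC, 0.28 ± 0.03 in HUVEC).

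Markers of other cell types were counted in the same way. Keratins and epithelial markers had 4 negative and 0 positive of 9 tested (median -0.23), and KRT7, a keratin also found in endothelium in culture, rose from 244 and 235 CPM to 764, 773 and 777 in HAEC and from 99.3, 97.0 and 97.8 to 163, 169 and 165 in HUVEC. Fibroblast markers had 1 positive of 12 (median 0.20), FAP, which rose in HUVEC (1.23 ± 0.17). Smooth muscle and pericyte markers had 2 positive and 1 negative of 10 (median -0.03). RGS5 was opposite, falling in HAEC from 46.4 and 45.5 to 40.1, 39.7 and 43.7 CPM and rising in HUVEC from 508, 511 and 525 to 749.7, 812 and 753, and TAGLN rose more in HAEC (-0.46 ± 0.08). Leukocyte markers had 1 positive of 4 (median 0.08), CD68, whose exons share most of their sequence with other genes.

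The number of calls differed with the libraries that were fitted together. In 1 fit of all 37 libraries, which takes in the spread of the fibroblast groups, 98 genes had a called difference and 7 an opposite response, and the differences of ALDH1A1 (-3.35, adjusted p = 0.0790) and CDKN2A (1.27, adjusted p = 0.248) did not pass, while that of MGARP did. Against a minimum difference of 0.5, 975 genes passed and 240 were of opposite response.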

How the data were processed

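RNA was sequenced after removal of ribosomal RNA, with cDNA made by the Ovation RNA-seq System V2, per the labels' protocols. The deposited values are raw read counts, 1 whole number for each gene in each library. Tools named in the submitters' processing notes are STAR 2.4, cutadapt, bcl2fastq and featureCounts, with genome build hg19. Which annotation release was counted, and whether by strand, is not given in the sources used here. Of 57773 genes, 52338 were given a symbol.

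The 11 libraries were grouped by their labels and fitted together as 4 groups without covariates in edgeR 4.0.16 (R 4.3.3; TMM scaling, filterByExpr, quasi-likelihood test, Benjamini-Hochberg adjusted p below 0.05). Levels are CPM on TMM-scaled totals, and the SE is the size of the log2 value divided by the square root of F. An opposite response needed the difference and both single responses to pass. Replicates differed by more than counting noise (chi-square per degree of freedom 8.51 to 33.9), and their coefficient of variation was 6.55%.

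The members and the 28 gene lists were chosen with earlier results of these data known. Genes named were ALDH1A1, MGARP and CDKN2A, the 10 largest opposite responses per orientation, the 4 largest unequal responses of each kind, the 3 largest called in 1 cell type only of each kind (all at an average log2 CPM of at least 1, without clone names or genes that depend on the donor), and up to 3 called members per list and sign with the smallest adjusted p. Some genes that the rule names are not reported here. Other list members were named after their values were seen. Of 527 listed symbols, CCL5, GJA5, PECAM1, TIMM23 and TXNIP matched no gene. Of 165 genes named by the rule, exons of 53 overlap a gene on the opposite strand and of 16 a gene on the same strand, and 1 (CD68) shares 50% or more of its exon sequence with other genes in stretches of 31 bases. Promoter windows are the 250 bases before the RefSeq start.

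On simulated counts for this comparison (29546 genes, 200 changed) the test recovered 100% of genes changed 2-fold and 100% of those changed 4-fold. There were 0 in the wrong direction, and unchanged genes made up 3.85% of calls. The 200 were drawn from genes with an average log2 CPM of at least 1, and both cell types were given the same control level. Recovery of differences below 2-fold, and of genes low in 1 cell type, was therefore not tested. Alternatives were DESeq2 size factors, DESeq2 1.42.0's Wald test, protein-coding genes only, no filter on low counts, the replicate number as a block, a minimum difference of 0.5 (glmTreat), each library left out in turn and 1 fit over the whole series of 37.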

Additional observations from a re-analysis of the deposited data

Results flagged for a closer look

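The radiation responses of 19 named genes with an average log2 CPM of at least 1 passed the test in both cell types with opposite signs and are listed because the effect of 1 treatment differed in sign between HAEC and HUVEC. The difference (HUVEC minus HAEC, log2, edgeR's quasi-likelihood test in 1 fit) was -6.83 for GJA4, -4.62 for FABP4, -3.55 for ITM2A, -3.45 for FRAS1 and -3.29 for ALDH1A1. It was -3.06 for SESN3, -2.96 for CPE, -2.67 for NR5A2, -2.56 for CCND2 and -2.37 for CECR2. In the other orientation it was 2.84 for IL31RA, 2.80 for DNAH8, 2.63 for HOXA6 and 2.41 for LHX6. It was 2.29 for RELN, 2.29 for MME, 2.04 for C6orf141, 2.02 for PHEX and 1.99 for CRYBG1. The adjusted p over all genes ran from 9.94e-24 for ALDH1A1 to 0.00924 for HOXA6. DNAH8, HOXA6 and CPE were at or below 0.247 CPM in every HAEC library, and ITM2A and CECR2 at or below 0.331 CPM in every HUVEC library, so the response of that cell type rests on few counts in these 5 genes. GJA4 was at 0.149 and 0.103 CPM in control HAEC, so the size of its HAEC response rests on low control counts. In LHX6 the HAEC libraries of the 2 states overlapped. No group held 4 or more libraries, so single libraries were not tested as outliers.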

How the results depend on the processing

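DESeq2 size factors, DESeq2's Wald test and no filter on low counts left each count of calls in the main comparison within 1.5 times, and with protein-coding genes only the count of at least 2-fold differences was 718, since fewer genes were tested. Of the named genes, OAS2 and TNFSF15 lost their call in DESeq2's Wald test. In the fit of all 37 libraries, 98 differences were called (26 with HUVEC above, 72 below, 93 at least 2-fold), 7 genes were opposite (6 rose and 1 fell in HAEC), 8 were unequal in the same direction (6 rose and 1 fell more in HAEC, 0 rose and 1 fell more in HUVEC), 10 list members were called, ALDH1A1 was at -3.35 (adjusted p = 0.0790) and CDKN2A at 1.27 (adjusted p = 0.248). The cause was not tested. Against a minimum difference of 0.5, 975 were called (466 above, 509 below, 645 at least 2-fold), 240 were opposite (131 rose and 109 fell in HAEC), 405 were unequal (165 rose and 231 fell more in HAEC, 5 rose and 4 fell more in HUVEC) and 117 list members were called. With each library left out in turn, genes that fell in HAEC and rose in HUVEC numbered 176 to 258, those that rose more in HUVEC 60 to 149, and all opposite genes 474 to 572. The difference of GPC5 ran from -3.43 (adjusted p = 0.468, without the first HAEC control) to 3.28.

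The deviations of same-numbered control and irradiated libraries from their group means had correlations of -0.0413 and 0.0595 in HAEC and -0.0487, -0.335 and -0.344 in HUVEC. Among libraries of unlike number the highest were 0.111 in HAEC and, in HUVEC, 0.337 (control 3, irradiated 2) and 0.299 (control 2, irradiated 3). In groups of 2 or 3 libraries these values are tied to each other, so they cannot decide whether libraries were paired. With the replicate number as a block within each cell type, 4192 differences and 428 opposite genes were called, 96 genes rose more and 166 fell more in HUVEC, and of 165 named genes TOMM70 lost its call. The opposite set changed in size and, to a smaller degree, in membership. Of the 566 opposite genes of the main fit, 416 (73.5%) stayed opposite with the block, where 428 were opposite in all. Without the first irradiated HUVEC library 439 (77.6%) did, where 487 were opposite in all. Against the minimum difference of 0.5, 240 (42.4%) stayed opposite. Of the named genes, 20 kept their call in the fit of all 37 libraries and 104 against the minimum of 0.5. The HAEC controls are 2 libraries, so every HAEC response rests on them, and genes below about 0.1 CPM rest on few counts.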
